A study of Homo sapiens with 8 samples.

Results

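The 40 DNA replication genes described here encode the proteins that copy the genome in S phase, from the factors that mark origins to the enzymes that supply deoxynucleotides. They were listed by gene symbol, and all 40 were measured among the 18776 genes tested. RNA levels were read with Affymetrix exon arrays. The cells were of the line NTera2/D1, human embryonal carcinoma cells that leave their stem-cell-like state when retinoic acid (RA) is added. All cultures received a small interfering RNA, directed either against RNF20 (siRNF20) or, as the control, against the bacterial gene LacZ (siLacZ), so that no group was free of transfection. RNF20 is the E3 ubiquitin ligase responsible for monoubiquitylation of histone H2B. The 4 groups were siLacZ with the solvent DMSO, siLacZ with 10 µM RA, siRNF20 with DMSO and siRNF20 with 10 µM RA, all read at 72 h. Each group had 2 arrays, one numbered GF117 and one GF120, and the labels call them biological duplicates. The comparisons ask whether RA changes the genes of the replication machinery, and whether depletion of RNF20 changes their level or their response to RA.

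Replication starts when the origin recognition complex, with CDC6 and CDT1, loads the ring of MCM2 to MCM7 onto DNA in G1. MCM10, CDC45 and the GINS complex turn that ring into a moving helicase, RPA covers the single strands behind it, and primase, DNA polymerases and the sliding clamp PCNA copy both strands. Many of these genes are transcribed late in G1 through E2F factors, which the retinoblastoma protein holds in check, and their RNA is abundant in rapidly dividing cells such as embryonal carcinoma cells. In RNA of whole cultures, fewer cells in S phase and less RNA per cell cannot be told apart.

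The promoters of some of these genes are shown because E2F letters, which the choice of genes did not use, stood in a part of them. The RefSeq promoter table (GRCh38.p14, from 250 bases before the transcript start to 50 after it) held 34 of the 40 genes. The 8 letters TTTCCCGC, TTTGGCGC, TTTCGCGC or TTTGCCGC, searched on both strands, stood in the promoters of 17 of 34 members (50%), against 908 of all 27305 promoters of this length (3.33%). In the most similar set, 49 other replication genes, they stood in 13 (26.5%). CCAAT, on both strands, stood in 19 of 34 members (55.9%), in 25 of the 49 other replication genes (51%) and in 35.7% of all promoters, and no difference between these sets was tested. A match of letters is a description and not a measured binding site. Below are stretches upstream of the start for the 2 genes called after RA and for 3 others that did not pass the test. All 3 of the others hold E2F letters, so they do not stand for the 34 members, of which 17 held them. E2F letters are in capitals, CCAAT was left in lower case, and each is written 5′ to 3′ on the gene's own strand.
PCNA, chr20:5126623-5126722 (minus): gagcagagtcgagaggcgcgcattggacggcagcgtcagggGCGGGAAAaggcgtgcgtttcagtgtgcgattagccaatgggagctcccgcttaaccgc
RFC4, chr3:186806483-186806582 (minus): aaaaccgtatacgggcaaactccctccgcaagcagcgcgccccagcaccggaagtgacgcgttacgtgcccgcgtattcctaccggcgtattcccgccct
MCM6, chr2:135876514-135876603 (minus): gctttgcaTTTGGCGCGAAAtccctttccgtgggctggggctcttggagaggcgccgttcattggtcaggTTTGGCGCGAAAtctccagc
CDT1, chr16:88803709-88803788 (plus): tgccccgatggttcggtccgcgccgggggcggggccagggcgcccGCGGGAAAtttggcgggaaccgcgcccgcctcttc
RFC3, chr13:33818049-33818128 (plus): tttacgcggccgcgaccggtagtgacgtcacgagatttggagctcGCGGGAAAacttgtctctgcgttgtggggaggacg
PCNA, CDT1 and RFC3 each held 1 match, and in MCM6 2 pairs of matches overlapped on opposite strands. The whole RFC4 promoter window held none of these letters, which says only that they are not in this window.

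Each array held 1384231 rows (probe sets, small groups of probes mostly within single exons), and each gene was given the median log2 intensity over its rows. The GF117 array labelled RA siLacZ stood apart: across genes, Pearson r was 0.135 to 0.239 with the other 7 arrays, and 0.908 to 0.974 among those 7. It was left out unless stated, so that RA siLacZ rests on its GF120 array alone, and the comparisons that use that group share this 1 array. Of 10 embryonal carcinoma markers all were measured and 9 had a mean above 8 on the log2 scale. After RA, 9 of the 10 had a negative change in siLacZ cells and 7 in siRNF20 cells, where 6 were called lower. NANOG fell by 3.82 in siLacZ cells (1 RA array) on the log2 scale. It fell by 2.76 in siRNF20 cells (limma, Benjamini-Hochberg adjusted p = 3.5e-05). SOX2 was lower with RA in siLacZ cells (10.50 and 10.55, then 9.90) but higher in siRNF20 cells (10.49 and 10.49, then 10.69 and 10.73). Markers of fibroblasts (5 measured), blood (4) and neurons (4) all had means at or below 8 on the 7 arrays, the blood markers all under 6. Among them the fibroblast markers COL1A1 (5.78 and 6.10 in DMSO siLacZ, 7.25 in RA siLacZ) and THY1 (7.88 and 8.03, then 6.52) passed the test after RA in siLacZ cells, THY1 in siRNF20 cells as well, and their part in the results was not tested. The siRNA target itself, RNF20, was 8.24 and 8.10 in DMSO siLacZ and 8.10 in RA siLacZ, against 6.48 and 5.98 in DMSO siRNF20 and 6.27 and 5.89 in RA siRNF20.

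After RA in siLacZ cells 2 of the 40 replication genes were called lower by the median over rows, PCNA and RFC4, the clamp and a subunit of the loader that places it on DNA, and none was called higher. The size and the call depended on the summary of rows: the gene medians changed by -1.01 and -0.92 on the log2 scale, while medians of row-centred values changed by -0.57 and -0.62 and did not pass (limma, adjusted p = 0.0884 and 0.0802). The others ranged from -0.78 (GINS1) to 0.53 (POLD3) on the log2 scale, and 38 of 40 did not pass the test. With the GF number as a replicate block 5 members were called, PCNA, RFC4, GINS1 (-0.81, adjusted p = 0.0117) and MCM4 (-0.59, 0.0248) lower and POLD3 higher (0.67, 0.0391), beside 9.46% of all genes. The background in the fit without the block was 726 of 18776 genes called in either direction (3.87%), 376 lower (2%) and 350 higher (1.86%). The median change of the 40 genes was -0.16 log2, against -0.05 for all genes, and 25 of 40 changes were negative (62.5%, against 55.3% of all genes). Changes beyond 0.5 log2 units in either direction were found for 5 of 40 genes (12.5%), against 26.8% of all genes.

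PCNA is the sliding ring that tethers polymerases to the template. Its log2 values were 8.96 (GF117) and 8.96 (GF120) in DMSO siLacZ, 7.95 in RA siLacZ, 9.05 and 9.55 in DMSO siRNF20, and 9.19 and 9.34 in RA siRNF20. The RA siLacZ array was the lowest of the 7, and the GF117 array left out read 5.61. The RA change in siLacZ cells was -1.01 ± 0.225 (SE; 1 array against 2; limma, Benjamini-Hochberg adjusted p = 0.04). RFC4 read 9.42 and 9.42 in DMSO siLacZ, 8.50 in RA siLacZ, 9.26 and 9.46 in DMSO siRNF20, and 9.51 and 9.22 in RA siRNF20. It was also lowest on the RA siLacZ array, with 6.50 on the GF117 array left out, and its change was -0.92 ± 0.193 (SE; 1 array against 2; limma, Benjamini-Hochberg adjusted p = 0.0302). With the mean over rows PCNA changed by -0.50 (adjusted p = 0.213) and RFC4 by -0.56 (adjusted p = 0.154). With all 8 arrays they changed by -2.18 and -1.92, and neither passed (adjusted p = 0.441 for both), while without either DMSO siLacZ array PCNA had an adjusted p of 0.154 or 0.143 and RFC4 of 0.128 or 0.11. RFC4 also missed the threshold without either DMSO siRNF20 array (adjusted p = 0.0503 and 0.0505), which enter through the shared estimate of the spread. Within GF120 alone the changes were -1.01 for PCNA and -0.92 for RFC4.

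**Figure D1:**
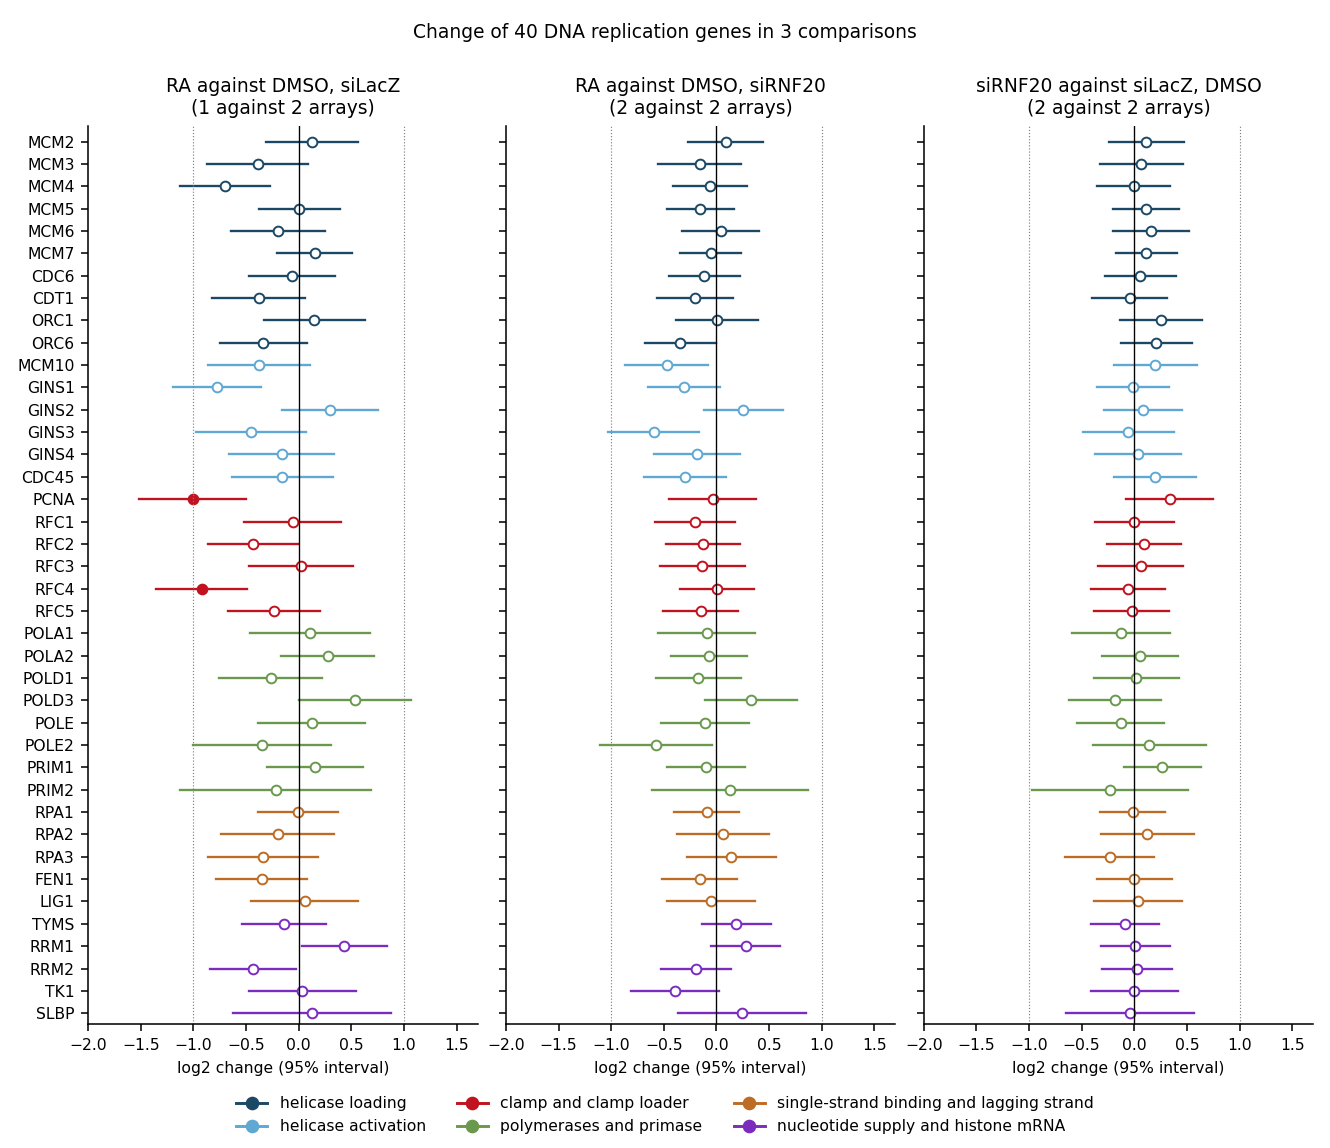
Log2 change of each of the 40 genes (points, coloured by role) with its 95% interval (lines) in 3 comparisons, RA against DMSO in siLacZ cells, RA against DMSO in siRNF20 cells, and siRNF20 against siLacZ in DMSO. PCNA (-1.01) and RFC4 (-0.92) lie farthest to the left in siLacZ cells and near 0 in siRNF20 cells (-0.04 and 0.00).

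Among the other subunits of the clamp loader, which opens the PCNA ring with ATP, RFC2 changed by -0.43 (adjusted p = 0.3, limma), RFC5 by -0.24, RFC1 by -0.06 and RFC3 by 0.02 after RA in siLacZ cells. None passed the test. RFC3, the smallest change of these 6 genes, read 8.96 and 9.35 in DMSO siLacZ and 9.17 in RA siLacZ, between the control arrays. Its siRNF20 values were 9.10 and 9.33 with DMSO and 8.97 and 9.19 with RA, and the groups overlapped.

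The 10 genes of helicase loading, which license origins, had a median change of -0.13 in siLacZ cells, and 6 of them were negative. None was called. MCM4, a subunit of the MCM ring, had the largest change of the 10, with 10.27 and 9.98 in DMSO siLacZ, 9.42 in RA siLacZ, 10.17 and 10.07 in DMSO siRNF20, and 10.22 and 9.90 in RA siRNF20. Its RA siLacZ array was the lowest of the 7, but the change of -0.70 ± 0.19 (SE) did not pass (limma, adjusted p = 0.086) and was -0.44 with row-centred medians. MCM5, another subunit of the same ring, changed least of the 10: 9.13 and 9.05 in DMSO siLacZ, 9.10 in RA siLacZ, 9.21 and 9.20 in DMSO siRNF20, and 9.02 and 9.09 in RA siRNF20. The siLacZ arrays overlapped (change 0.01). The licensing factor CDT1 changed by -0.38, the loader CDC6 by -0.06, and the origin recognition subunit ORC1 by 0.15. ORC6, of the same complex, changed by -0.34 over all 19 rows, of which 5 had neighbours on another chromosome. Over its 14 other rows it read 8.19 and 8.40 in DMSO siLacZ and 7.74 in RA siLacZ, a change of -0.56 that did not pass (limma, adjusted p = 0.217), and its change in siRNF20 cells was -0.16 in place of -0.35.

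The 6 genes of helicase activation had a median change of -0.27 in siLacZ cells, with 5 negative and none called. GINS1, a subunit of the GINS complex, read 9.23 and 9.46 in DMSO siLacZ, 8.57 in RA siLacZ, 9.30 and 9.38 in DMSO siRNF20, and 9.11 and 8.96 in RA siRNF20. Both RA groups lay below their DMSO groups, and the change in siLacZ cells of -0.78 ± 0.186 (SE) had an adjusted p of 0.053 (limma). That value too depended on the rows: it was -0.37 with the mean over rows, -0.23 with row-centred medians (adjusted p = 0.494) and -0.14 without the rows nearest the 3′ end (adjusted p = 0.847). CDC45, the helicase's other partner, read 7.63 and 7.68 in DMSO siLacZ, 7.50 in RA siLacZ, 7.90 and 7.81 in DMSO siRNF20, and 7.63 and 7.49 in RA siRNF20. Its RA arrays also lay below their controls, by -0.16 in siLacZ and -0.30 in siRNF20 cells, without passing. GINS2 was the 1 gene of this group with a positive change (0.30), which was the same to 2 decimals without 2 of its 14 rows that had neighbours on another chromosome.

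Polymerase and primase genes had the highest median of the 6 roles, 0.12, with 5 of 8 positive and none called. POLD3, an accessory subunit of polymerase delta, which copies the lagging strand, read 8.06 and 7.82 in DMSO siLacZ, 8.48 in RA siLacZ, 7.88 and 7.62 in DMSO siRNF20, and 8.23 and 7.93 in RA siRNF20. RA arrays were above DMSO arrays in both backgrounds, by 0.53 and 0.32 (limma, adjusted p = 0.306 and 0.506). POLA1, the catalytic subunit that extends primers, read 8.71 and 8.53 in DMSO siLacZ, 8.73 in RA siLacZ, 8.64 and 8.36 in DMSO siRNF20, and 8.66 and 8.14 in RA siRNF20. Its RA siLacZ array lay just above both controls (change 0.11), and its siRNF20 groups overlapped.

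Of the 5 genes for single-strand binding and lagging-strand maturation 4 had negative changes in siLacZ cells (median -0.20), and none was called. FEN1, which trims the flaps of Okazaki fragments, read 8.82 and 9.03 in DMSO siLacZ, 8.57 in RA siLacZ, 8.83 and 9.03 in DMSO siRNF20, and 8.77 and 8.76 in RA siRNF20. RA arrays lay below DMSO arrays in both backgrounds (-0.35 and -0.16), although 8 of its 16 rows had neighbours on another chromosome and may not read FEN1 alone. Over the 8 other rows its changes were -0.31 and -0.10, and its siRNF20 groups overlapped. RPA1, the large subunit of the single-strand binding protein, read 9.29 and 9.20 in DMSO siLacZ, 9.24 in RA siLacZ, 9.26 and 9.20 in DMSO siRNF20, and 9.14 and 9.13 in RA siRNF20. Its siLacZ arrays overlapped (change -0.01).

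The genes of nucleotide supply, with SLBP, which binds the stem-loop of histone mRNA, had a median change of 0.03 in siLacZ cells. RRM2, the regulated subunit of ribonucleotide reductase, had the largest, -0.44 (limma, adjusted p = 0.271). Its values were 9.52 and 9.31 in DMSO siLacZ, 8.98 in RA siLacZ, 9.52 and 9.37 in DMSO siRNF20, and 9.20 and 9.29 in RA siRNF20, below the controls in both backgrounds, and without 2 rows with neighbours on another chromosome its change was the same to 2 decimals. The partner subunit RRM1 lay on the other side, with a change of 0.43 (adjusted p = 0.27). TK1, the thymidine kinase of the salvage pathway, read 7.38 and 7.49 in DMSO siLacZ, 7.47 in RA siLacZ, 7.55 and 7.33 in DMSO siRNF20, and 7.08 and 7.01 in RA siRNF20. Its siLacZ arrays overlapped, and its RA siRNF20 arrays were the lowest of the 7.

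**Figure D2:**
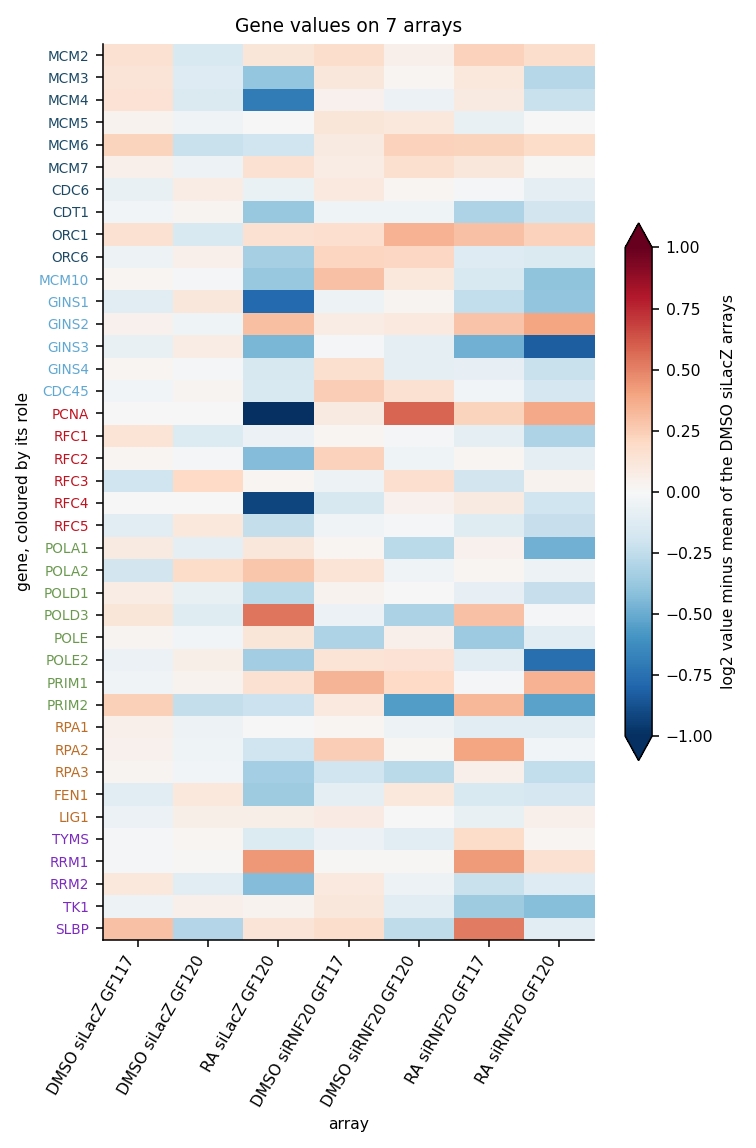
Gene values of the 40 genes (vertical axis, coloured by role) on 7 arrays (horizontal axis), as log2 value minus the mean of the DMSO siLacZ arrays. The lowest cells in the RA siLacZ array are those of PCNA (-1.01) and RFC4 (-0.92), followed by GINS1 (-0.78) and MCM4 (-0.70).

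Read row by row, both called genes were lower on most of their rows, and in PCNA 1 row stood out. The 13 rows of PCNA changed by -1.69 to 0.31 after RA in siLacZ cells. Probe set 3896203, the next to last before the 3′ end, read 8.96 and 8.96 in DMSO siLacZ, 7.27 in RA siLacZ, 9.05 and 9.55 in DMSO siRNF20, and 9.19 and 9.34 in RA siRNF20. It was the 1 PCNA row called on its own (-1.69 ± 0.259 SE; limma, adjusted p = 0.0107 over 277621 rows), and on 6 of the 7 arrays it was the median row, so that it set the value of the gene. On the RA siLacZ array the median row was another, 3896210, whose own change was 0.31, so that the change in the gene's median set different rows against each other. Of the 13 PCNA rows, 9 lay below both DMSO siLacZ arrays on the RA siLacZ array, and 8 of these changed by -0.46 to -0.77. On 9 rows that array was the lowest of the 7. These counts have no share over all rows beside them, and at gene level 41.8% of all genes lay below both DMSO siLacZ arrays. Among the other rows, probe sets 3896202 (4.575 to 5.774) and 3896216 (3.30 to 5.04) were dim on the 7 arrays.

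The lower values of RFC4 ran along nearly its whole length. Of its 14 rows, 13 lay below both DMSO siLacZ arrays on the RA siLacZ array, by -0.38 to -0.99, and on 10 of them that array was the lowest of the 7. Here too the share over all rows was not computed. No single RFC4 row passed the test (smallest adjusted p = 0.0636, limma). The row with the largest change, probe set 2709491, read 9.28 and 9.40 in DMSO siLacZ, 8.35 in RA siLacZ, 9.17 and 9.47 in DMSO siRNF20, and 9.17 and 9.29 in RA siRNF20. The 1 row of RFC4 with a positive change lay farthest from the 3′ end and was dim (4.33 to 5.36 on the 7 arrays). In siRNF20 cells 6 of 14 RFC4 rows and 6 of 13 PCNA rows were negative after RA, and none was called.

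Over all 848 rows of the 40 genes, 6 were called after RA in siLacZ cells, all lower (0.708%, against 1.92% of all 277621 rows, 0.987% lower). Besides the PCNA row these were 3 of 30 rows of MCM4 (-1.27 to -1.40), 1 of 10 rows of GINS1 (-1.67) and 1 of 19 rows of ORC6 (-1.84), 1 of the 14 at its own locus. The GINS1 row read 9.70 and 10.08 in DMSO siLacZ, 8.22 in RA siLacZ, 9.72 and 10.31 in DMSO siRNF20, and 9.88 and 10.05 in RA siRNF20. The GINS1 and ORC6 rows were the last before the 3′ end of their genes. The strand of MCM4 was not available, so its rows were not ordered from the 5′ to the 3′ end. Its 3 called rows (probe sets 3097195, 3097196 and 3097199) were among the highest-numbered of the gene. On 26 of 30 MCM4 rows the RA siLacZ array lay below both DMSO siLacZ arrays. That count also has no share over all rows beside it, and at gene level 41.8% of all genes lay below. No member row was called in the other 4 comparisons, where 1.84% of all rows were called for RA in siRNF20 cells (0.915% lower), 0.00072% between siRNF20 and siLacZ with RA, and 0% in the remaining ones.

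**Figure D3:**
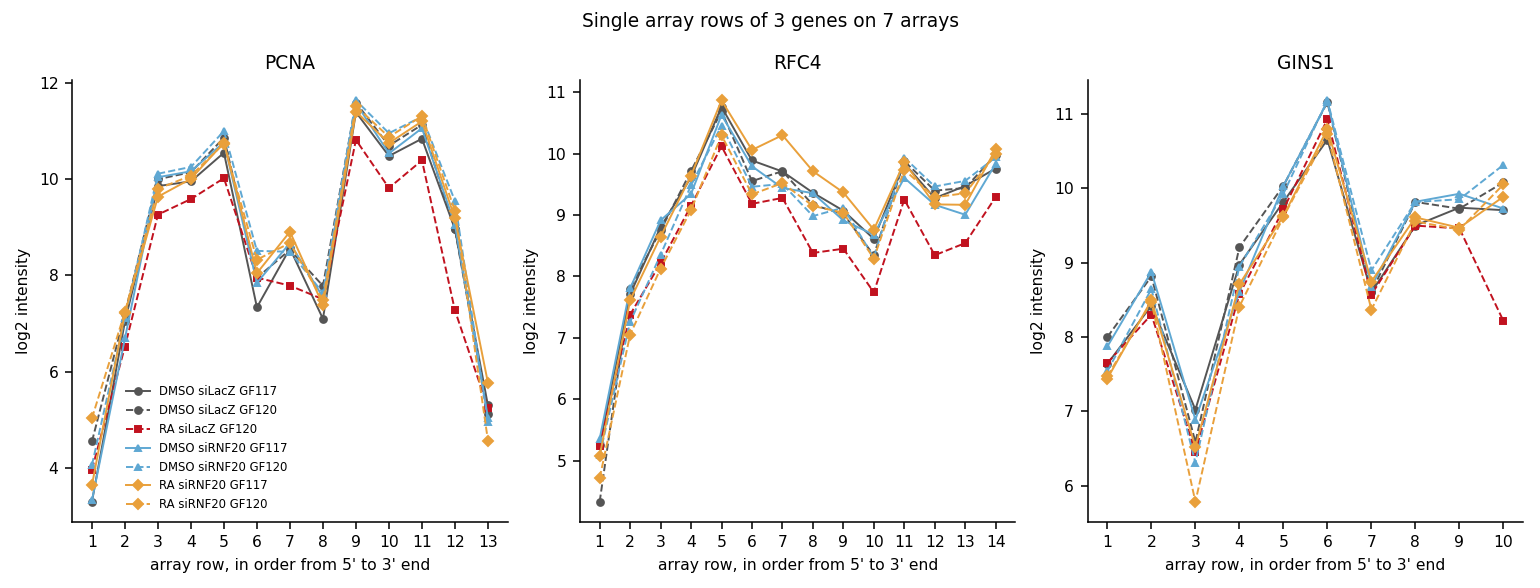
Log2 intensity (vertical axis) of single array rows, ordered from the 5′ to the 3′ end (horizontal axis), on the 7 arrays for PCNA, RFC4 and GINS1 (solid lines GF117, dashed lines GF120). The RA siLacZ array runs below the other arrays on 9 of 13 rows of PCNA and 10 of 14 rows of RFC4. In PCNA the widest gap is at the next to last row (7.27 against 8.96 or more), and in GINS1 at the last (8.22 against 9.70 or more).

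Values on the RA siLacZ array also depended on where a row lay in its gene. Rows were ordered by probe set number, which followed RefSeq start positions (Spearman rho across genes 0.881 to 1 by chromosome and strand, Y left out), and 10282 genes with a known strand and at least 8 rows were used, among them 34 members. Over all these genes the last row before the 3′ end deviated from its mean over 7 arrays, less the median deviation of all rows of the gene, by -0.203 log2 units on the RA siLacZ array and by -0.0127 to 0.0812 on the 6 others. In the 34 replication genes the same deviation was -0.293 for the last row and -0.368 for the one before it. On the 6 other arrays it was -0.0262 to 0.103 for the last row and -0.0243 to 0.159 for the one before it. The lower values at the 3′ end were thus seen in other genes as well, and their part in the changes of the replication genes was not tested. To describe where in the genes the changes lay, the 25% of rows nearest the 3′ end, called 3′-end rows here, were set against the rest.

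**Figure D4:**
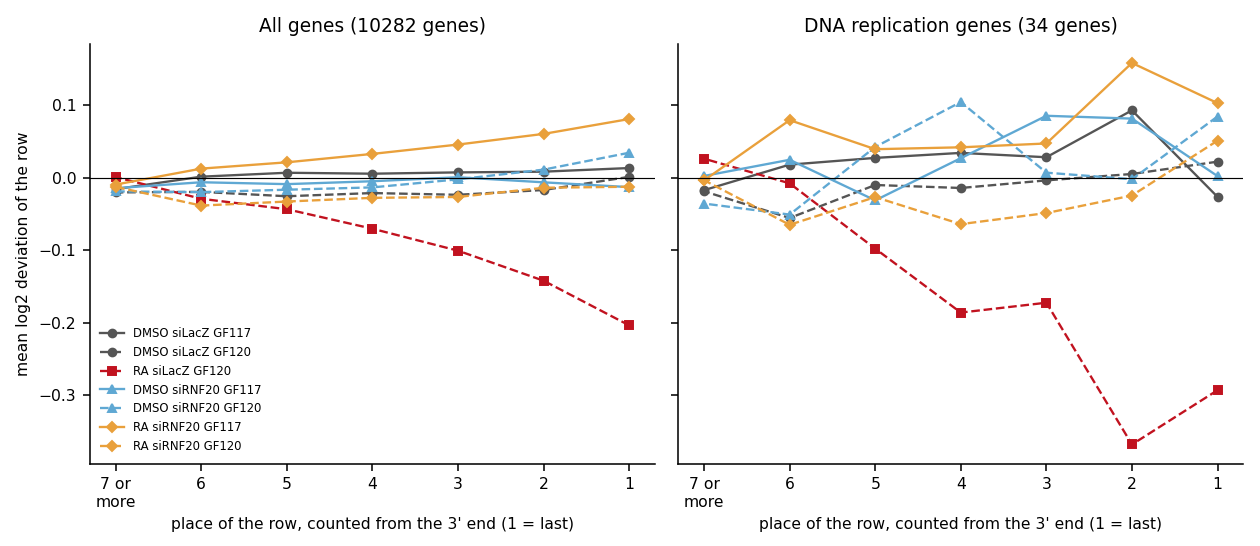
Mean deviation of a row (log2, vertical axis) by its place counted from the 3′ end (horizontal axis) on each of 7 arrays, for 10282 genes and for the 34 replication genes among them. The RA siLacZ array dips at the 3′ end in both (-0.203 and -0.293 at the last row). There the 6 other arrays lie between -0.0127 and 0.0812 in all genes and between -0.0262 and 0.103 in the 34 replication genes.

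After RA in siLacZ cells the change in the 3′-end rows was below that in the other rows for 31 of 34 replication genes (91.2%), against 65.5% of all 10282 genes, with a median difference of -0.30 against -0.13. The median change of the 34 genes was -0.39 in the 3′-end rows and -0.07 in the other rows. TYMS, which makes thymidylate, changed by -0.94 at the 3′ end and by 0.00 elsewhere, and FEN1 by -0.96 and -0.03. RRM1 changed by -0.48 at the 3′ end and by 0.41 elsewhere, so that the 2 stretches had opposite signs. For PCNA the values were -0.75 and -0.38, and for RFC4 -0.77 and -0.48, so that both were lower in the rest of the gene as well. With the 3′-end rows left out no member was called: PCNA changed by -0.59 (limma, adjusted p = 0.191) and RFC4 by -0.74 (adjusted p = 0.129). That fit removed rows only from genes with a known strand. Members outside the 34, such as MCM4 (-0.70) and POLD3 (0.53), therefore kept all their rows. In siRNF20 cells the 3′-end rows were lower for 19 of 34 genes (55.9%, all genes 47.5%), and in the knockdown comparison with DMSO for 16 of 34 (47.1%, all genes 49.5%).

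**Figure D5:**
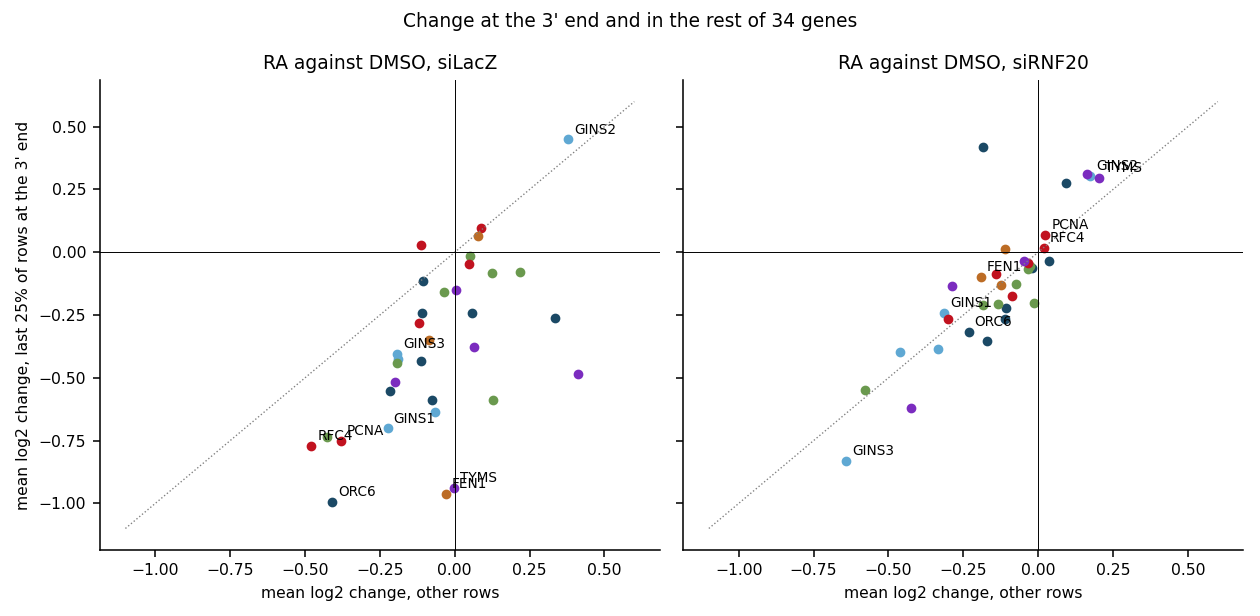
Mean log2 change of the 3′-end rows (vertical axis) against that of the other rows (horizontal axis), 1 point per gene for 34 genes, for the RA response of siLacZ cells and of siRNF20 cells. In siLacZ cells 31 of 34 points lie below the dotted line of equal change, and in siRNF20 cells 19 of 34.

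In siRNF20 cells, where both groups had 2 arrays, RA changed none of the 40 replication genes past the test (limma, smallest adjusted p = 0.146), against a background of 733 of 18776 genes called (3.9%; 2.11% lower and 1.79% higher). At an unadjusted p under 0.05 there were 4 members and 15.3% of all genes. The direction was mostly negative: 28 of 40 changes (70%, all genes 53.6%) with a median of -0.11 against -0.03. Of 848 rows 589 were negative (69.5%), a count that weights genes by their rows and has no share over all rows beside it. The 95% intervals of 38 of 40 genes lay within a 2-fold change in either direction. Helicase activation had the lowest median of the 6 roles (-0.30). Its largest change was that of GINS3, with 7.87 and 7.79 in DMSO and 7.40 and 7.06 in RA, a change of -0.60 ± 0.191 (SE) in which the groups did not overlap. With the GF number as a replicate block GINS3 was called (-0.60, adjusted p = 0.0383), beside 10.4% of all genes.

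In siRNF20 cells RA changes had 1 sign on every row for 5 of 40 genes, 4 negative (10%) and 1 positive (2.5%), against 4.43% and 3.46% of the 11197 genes with 10 rows or more, and none of the 5 passed the test as a gene. All 28 rows of MCM10, which helps to start the helicase, were negative (gene change -0.47, limma adjusted p = 0.222), and so were all 21 rows of POLE2, a subunit of the leading-strand polymerase (-0.57, adjusted p = 0.284). The same held for the 15 rows of TK1 (-0.39, adjusted p = 0.358) and the 10 rows of GINS1 (-0.31, adjusted p = 0.386). TYMS stood on the other side, with all 12 rows positive (0.19, adjusted p = 0.648). Rows of a gene read the same RNA sample and are no replicates.

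RA arrays lay wholly below DMSO arrays for 16 of 40 genes in siRNF20 cells (background 24.8%) and wholly above for 4 (background 18.1%). In siLacZ cells, with 1 RA array, the counts were 20 below (background 41.8%) and 8 above (background 32.1%). Below the controls in both backgrounds, which share no array, were 11 genes (27.5%, all genes 17%): MCM10, RFC5, GINS1, GINS3, CDC45, CDT1, ORC6, POLD1, POLE2, FEN1 and RRM2. FEN1 overlapped in siRNF20 cells when only rows at its own locus were used. Above them in both were GINS2, POLD3 and RRM1 (7.5%, all genes 12%). PCNA and RFC4 were in neither list. Across the 40 genes the RA changes in siLacZ and siRNF20 cells correlated at r = 0.418, and at 0.559 without PCNA and RFC4, against 0.699 over all genes. PCNA and RFC4 had the largest differences between the 2 responses among the 40 genes (0.97 and 0.92), so the higher value without them follows from that choice. The correlations are descriptions across genes, which are not independent replicates.

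After depletion of RNF20 in DMSO no replication gene differed from siLacZ cells by more than 0.34 log2 units. None of 40 was called, as none of all 18776 genes was (0%; limma), and at an unadjusted p under 0.05 there were 0 members and 522 genes in all. RNF20, the siRNA target, was not called either, with a change of -1.94 ± 0.234 (SE; limma, adjusted p = 0.241). With RA its change was -2.02, also not called. The absence of calls therefore does not show an absence of change. The median change of the 40 replication genes in DMSO was 0.03, with a range of -0.23 (RPA3) to 0.34 (PCNA). All 40 of their 95% intervals lay within a 2-fold change in either direction. The arrays were apart for 13 genes, 3 lower (CDT1, RPA3 and TYMS; background 15.6%) and 10 higher (background 14.6%), among them ORC6 and GINS2, whose groups overlapped when only rows at their own locus were used. PCNA was among the higher: both siRNF20 arrays (9.05 and 9.55) lay above both siLacZ arrays (8.96 and 8.96). Probe set 3896203 was the median row on each of these arrays, so that the change of 0.34 was its own. The 13 PCNA rows had a median change of 0.15, with 3 of them negative.

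With RA, PCNA was 1.31 ± 0.225 (SE) log2 units higher in siRNF20 than in siLacZ cells and RFC4 0.87 ± 0.193, but neither passed (2 arrays against 1; limma, adjusted p = 0.116 and 0.222). No member was called, against 2 of 18776 genes (0.0107%), and at an unadjusted p under 0.05 there were 4 members and 7.95% of all genes. With the GF number as a replicate block both were called (PCNA 1.42, adjusted p = 0.00873; RFC4 0.85, adjusted p = 0.0445), beside 1.21% of all genes. With row-centred medians they shrank to 0.67 and 0.51, and PCNA to 0.45 with rows above the upper quartile. This comparison uses the same RA siLacZ array as the response in siLacZ cells and gives no second view of it. The siRNF20 arrays lay above the RA siLacZ array for 18 genes (background 33%) and below it for 12 (background 33.9%). The RA response of siRNF20 cells minus that of siLacZ cells was 0.97 ± 0.291 (SE) for PCNA and 0.92 ± 0.249 for RFC4. With adjusted p = 0.958 and 0.945 (limma) neither passed, 0 of all 18776 genes did (0%), and 3 members and 736 genes had an unadjusted p under 0.05. With row-centred medians the difference was 0.55 for PCNA and 0.66 for RFC4, and with rows above the upper quartile 0.30 for PCNA. A fall of PCNA and RFC4 that is particular to siLacZ cells was therefore not shown, and the intervals of that difference, 0.32 to 1.63 for PCNA and 0.37 to 1.48 for RFC4, were not adjusted for the number of genes.

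Other genes of the pathway, 58 of 59 listed genes that are not among the 40, had medians of -0.08 in siLacZ and -0.13 in siRNF20 cells after RA. In siLacZ cells 36 of the 58 changes were negative, and 1 gene was called higher and 2 lower. In siRNF20 cells 38 were negative, and 1 gene was called higher and 1 lower. RB1, the retinoblastoma protein that restrains E2F, rose by 1.36 log2 units in siLacZ and 0.96 in siRNF20 cells (limma, adjusted p = 0.0214 and 0.0399). Its values were 6.89 and 6.76 in DMSO siLacZ, 8.19 in RA siLacZ, 6.53 and 6.28 in DMSO siRNF20, and 7.57 and 7.16 in RA siRNF20, so that RA arrays lay above DMSO arrays in both backgrounds. SAMHD1, which breaks down deoxynucleotides, fell by 1.74 and 1.49 (adjusted p = 0.00195 and 0.00135). DSCC1, a subunit of an alternative clamp loader, fell in siLacZ cells by 1.29 (limma, adjusted p = 0.0163). In siRNF20 cells it read 8.73 and 8.54 with DMSO and 8.23 and 7.82 with RA, lower as well but not called. None of the 58 was called in the knockdown comparisons or in the difference between responses. Of 7 measured proliferation markers that are not replication genes, such as MKI67 and TOP2A, none was called in any comparison. Their median value lay between 9.20 and 9.73 on each of the 7 arrays, 9.36 on the RA siLacZ array.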

How the data were processed

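Per the labels, total RNA of 8 cultures was biotin-labelled for the array. The deposited values are linear intensity values, 1 per row and array; the background correction and normalization the authors used are not stated in the sources at hand. Of 1384231 rows, 354600 were used because the platform table gives them a single gene symbol, 14898 had several symbols, and the rest had none; older symbols were updated through the gene names of RefSeq, among them those of 3 members. A row was kept if its mean log2 intensity exceeded that of the median row (3.97), and the median over kept rows gave the gene's value on an array. No further normalization was applied. Array intensities have no depth in counts, so the number of arrays limits the precision; an exact two-sided permutation test of 2 arrays against 2 cannot go below p = 0.333.

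With R 4.3.3, limma 3.58.1 and the data.table package (1.17.8), a linear model fitted the 4 group means to 7 arrays with an intensity trend. Every adjusted p is limma's, two-sided, Benjamini-Hochberg adjusted over all 18776 genes, or over 277621 rows for single rows, and was called below 0.05. The lone RA siLacZ array is assumed to vary like the others, and p-values measure only the spread between these arrays. The script was tested on simulated data. Python 3.11.15 with matplotlib 3.10.9 made the figures.

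The members, roles, lists and comparisons were chosen with earlier results of these data known. All 40 members are named by rule; values on every array are given for called members and for the largest and smallest RA change in siLacZ cells of each role. Further genes and rows (RFC2, GINS3, MCM10, POLE2, TYMS, RRM1, ORC6, the GINS1 row) were singled out after their values were seen. The labels leave the meaning of the GF numbers unexplained. Deviations of same-numbered arrays from their group means correlated at 0.296 to 0.363 in every pair of the 3 groups with 2 arrays, so the fit with the GF number as a replicate block is given beside each result whose call it changes. Alternatives changed the arrays, the summary and filter of rows, the normalization and the fit. Row coordinates are not given, since no build is stated for the array; promoter sequences are RefSeq's, GRCh38.p14.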

Additional observations from a re-analysis of the deposited data

How the results depend on the processing

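The number of members called after RA in siLacZ cells, 2 of 40, was 0 with all 8 arrays, with the mean over rows, with row-centred medians, without the intensity trend and without the 3′-end rows. It was 1 (RFC4) with rows above the upper quartile and with no filter on dim rows, and 5 with the GF number as a replicate block (GINS1, MCM4, POLD3, PCNA and RFC4), which changed no call of a member beyond those given here and beside the results. Leaving out 1 array at a time gave 0 (without either DMSO siLacZ array) to 3 (with GINS1, without either RA siRNF20 array), and 37 when the GF117 RA siLacZ array took the place of the GF120 one, where 71.1% of all genes were called; then MCM5 (-2.13), POLA1 (-3.64), POLD3 (-3.18) and RFC3 (-5.46) turned from a positive to a negative change. With the GF117 array in that place 38 of 40 members had a negative change in siLacZ cells, against 25 with the GF120 one. More members than those named thus changed sign. In siRNF20 cells the count of 0 became 1 with the replicate block and with the mean over rows, GINS3 in both. Between siRNF20 and siLacZ with RA, 0 became 2 with the replicate block (PCNA 1.42, adjusted p = 0.00873; RFC4 0.85, adjusted p = 0.0445; limma), beside 227 of all genes, and 36 with the GF117 RA siLacZ array in place of the other (68.5% of all genes), as did the difference between responses (60.9% of all genes). The 6 member rows called became 0 with all 8 arrays, 28 with the replicate block, 1 with no filter and 2 to 9 without 1 array. No share over all rows stands beside these row counts, so they cannot be read as a result about the replication genes. The cause of all these shifts was not tested. Members' counts in DMSO stayed at 0 under every alternative run. The alternatives without 3′ rows, with members' rows at their own locus (no call changed, ORC6 from -0.34 to -0.56) and with the GF117 array in place of the GF120 one were chosen after seeing the data. Over all genes, RA in siLacZ cells called 310 to 964 without 1 array, 13344 of 18780 with the GF117 array in place of the GF120 one, 1777 with the block and 0 with all 8 arrays, against 726.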
